A study of Drosophila melanogaster with 13 samples.

Results

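The genes described here are 40 parts of the machinery that releases and recycles synaptic vesicles, chosen by name: vesicle fusion, active zone and vesicle recycling genes of the fruit fly Drosophila melanogaster. All 40 were found by symbol among the 17737 genes of the count table. Of them 38 had reads and passed the filter on low counts, and stnA and stnB had 0 reads in every library. RNA came from neurons of fly brains that were marked with GFP and picked by hand, and the labels give no age, sex or further genotype. TRH-Gal4, a driver named for tryptophan hydroxylase of serotonin synthesis, marked the cells of 4 pools (40, 45, 60 and 57). sNPFR-Gal4, named for the short neuropeptide F receptor, marked 1 pool (16) and 8 single cells (1 to 7 and 10). Brains of the TRH-Gal4 flies were dissociated and those of the sNPFR-Gal4 flies pinned, and pools had 12 PCR cycles where cells had 17, so handling cannot be told apart from the driver.

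Release begins when calcium enters the nerve ending at the active zone, a protein scaffold that holds vesicles beside calcium channels. Synaptobrevin on the vesicle zips together with syntaxin and SNAP-25 on the cell membrane, synaptotagmin senses the calcium, and Unc13, Munc18 and complexin proteins set when fusion can happen. Afterwards NSF and its adaptor alpha-SNAP pull the fusion complex apart. Clathrin adaptors, dynamin, endophilin and synaptojanin take the membrane back into new vesicles. These steps are shared by neurons whatever transmitter they use.

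Levels are CPM, a gene's reads scaled to its library's total, so that 1 CPM is 1 read in 1000000. Values of the TRH pools are given in the order 40, 45, 60 and 57, and those of the 8 cells as lowest, median and highest. A gene was counted as present in a library at 10 CPM or more. Each read set was large, from 3.38 M reads in cell 4 to 68.0 M in cell 7, with 8.72 to 15.6 M in the TRH pools and 56.1 M in the sNPFR pool. Cell 7 held 52.7% of the summed reads of the cells. Cells 3, 4 and 10 stood apart in having 865, 782 and 953 of the 7426 tested genes present, against 1490 to 1882 in the other cells and 5027 to 5589 in the TRH pools. Neuronal markers (5 listed) summed to 4085 to 5861 CPM per TRH pool, to 4653 CPM in the sNPFR pool and to 6578 to 20285 CPM per cell. All 5 were present in every TRH pool, 4 in the sNPFR pool and 3 (fne, para and Nckx30C) in every cell. The exception in the sNPFR pool was elav, an RNA-binding protein gene, at 1.37 CPM there. It stood at 371, 253, 192 and 229 CPM across the TRH pools and was present in 4 of the 8 cells. The release machinery genes are not in that list. Of the 38 with reads, 7 were present in every cell, nSyb and Syt1 among them, and 31 were not. Glia markers (11 listed) summed to 446 to 949 CPM per TRH pool, to 2063 CPM in the sNPFR pool and to 16 to 1831 CPM per cell. The upper end in the cells was 1 gene, Eaat2, at 1543 CPM in cell 2 and 1825 CPM in cell 6, where repo, nrv2, Eaat1, alrm and Gs2 had 0 reads. In the sNPFR pool 5 of the 11 were present, with Eaat1 at 1105 CPM and alrm at 323 CPM, and 6 were at 0 reads, among them repo and nrv2. Hemocyte and fat body markers (6 listed) summed to 162 to 412 CPM per TRH pool, nearly all of it Pxn, but had 0 reads in the sNPFR pool and at most 0.26 CPM in a cell. Of 6 photoreceptor markers norpA carried nearly all of the sum, at 262 to 447 CPM per TRH pool, 1023 CPM in the sNPFR pool and 0 to 3348 CPM per cell, with ninaE, trp and chp at 0 in every cell. Muscle markers (7 listed) summed to at most 16.4 CPM in a TRH pool, to 5.92 CPM in the sNPFR pool and to at most 157 CPM in a cell. The part of these markers in the results below was not tested.

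Together the 38 genes took up 2.76% to 4.28% of the reads of a library, with 3.48%, 3.95%, 3.38% and 4.28% in the TRH pools, 3.64% in the sNPFR pool and 2.76% to 4.07% in the single cells. All 38 genes were present in all 4 TRH pools, where 52.6% of all tested genes were. In the sNPFR pool 30 of the 38 were present, against 37.2% of all tested genes. Single cells held 11 to 26 of the 38 genes each. Over the 304 pairs of a gene and a cell, 56.2% were at 10 CPM or more, 15.8% had reads but lay under 10 CPM, and 28% had 0 reads. The same shares over all tested genes were 18.7%, 12.3% and 69.0%.

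**Figure D1:**
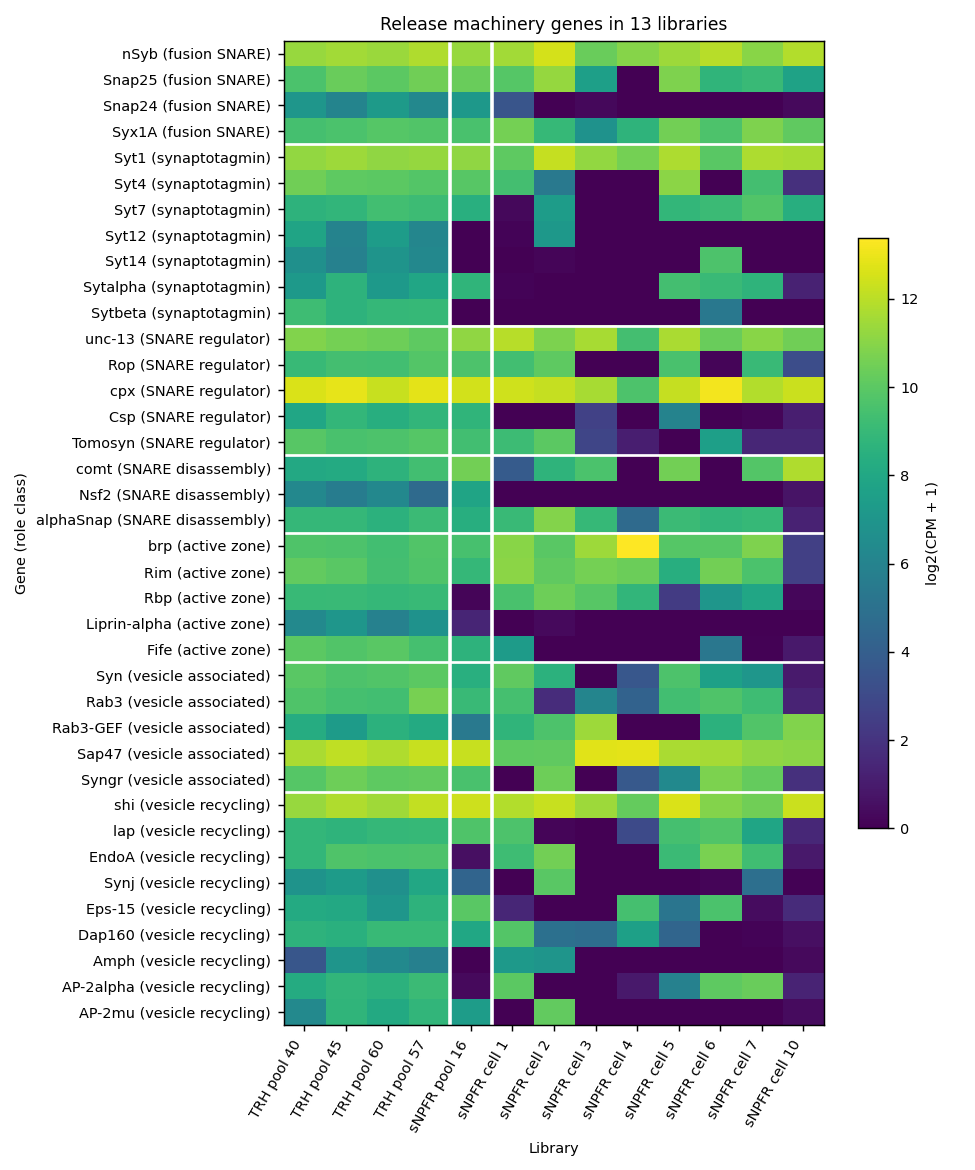
Heat map of the level, log2(CPM + 1), of the 38 release machinery genes with reads (rows, by role class) in the 4 TRH pools, the sNPFR pool and the 8 single sNPFR cells (columns). The rows of nSyb, Syx1A, Syt1, unc-13, cpx, Sap47 and shi are bright in every column, while most other rows break up into bright and dark cells at the right.

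In all 8 cells 7 of the genes were present (18.4% of the 38, where 2.1% of all tested genes were). They were the vesicle SNARE nSyb, the membrane SNARE Syx1A, the calcium sensor Syt1, the priming factor unc-13, the complexin gene cpx, the vesicle-associated protein gene Sap47 and the dynamin gene shi. Another 29 were present in 1 to 7 cells (54.4% of all tested genes), and 2, Nsf2 and Liprin-alpha, in no cell (43.5% of all tested genes). The number in all cells was also 7 at a threshold of 50 CPM, and was 11 at 1 CPM, with alphaSnap, brp, Rim and Rab3 added. Over the 5 cells other than 3, 4 and 10, which were left out after their values were seen, 13 genes were present in all (5.75% of all tested genes), the 7 and Snap25, alphaSnap, brp, Rim, Syn and EndoA. Whether a gene at 0 reads in a cell was not transcribed there or its RNA was lost before sequencing cannot be told apart.

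The genes present in every cell were also the abundant ones. In the sNPFR pool 6 of the 7 stood above 2000 CPM, and these were all the release machinery genes at that level. Of all tested genes at that level 86.5% were present in all 8 cells. Syx1A was the seventh, at 747 CPM in that pool, where 11.7% of all genes between 500 and 1000 CPM were in all cells and 1 of the 9 release machinery genes was. At 100 to 500 CPM none of 11 release machinery genes was in all cells, against 1.98% of all tested genes in that range. The 7 genes together made up 55.5% to 59.9% of the machinery's reads in the TRH pools, 65.2% in the sNPFR pool and 51.2% to 78.3% in the cells. Cell 10 was at the top of that range: its other 31 genes summed to 6003 CPM, against 9574 to 17115 CPM in the other cells.

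**Figure D2:**
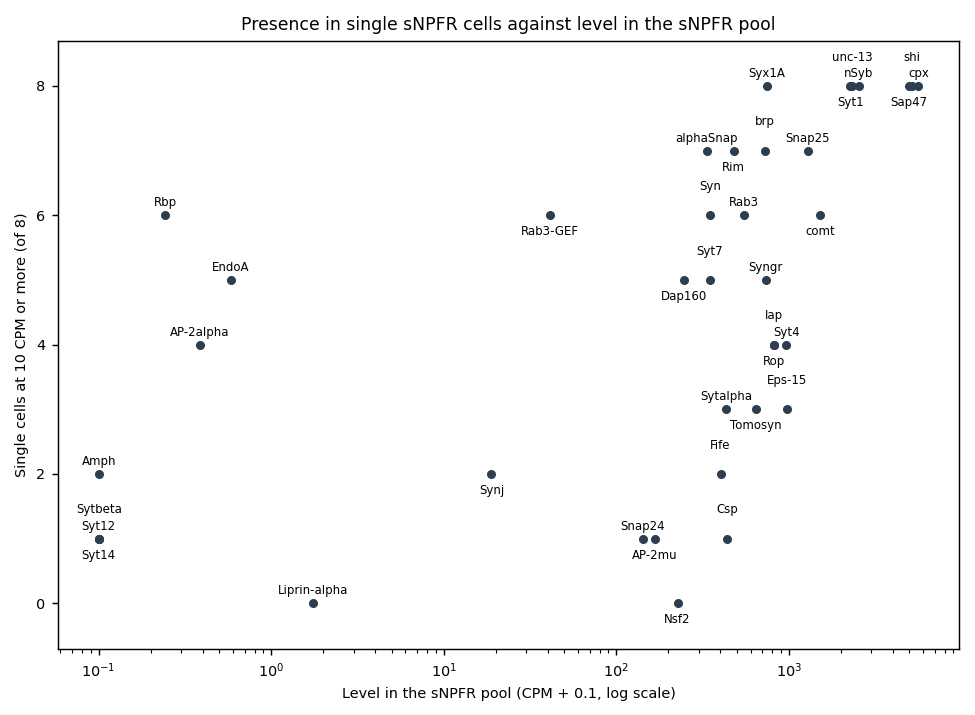
Each point is 1 gene, by its level in the sNPFR pool (CPM + 0.1, log scale) and the number of the 8 single sNPFR cells in which it reached 10 CPM. The genes above 2000 CPM in the pool are in 8 of 8 cells, while Rbp, EndoA and AP-2alpha sit under 1 CPM in the pool but reach 10 CPM in 6, 5 and 4 cells.

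**Figure D3:**
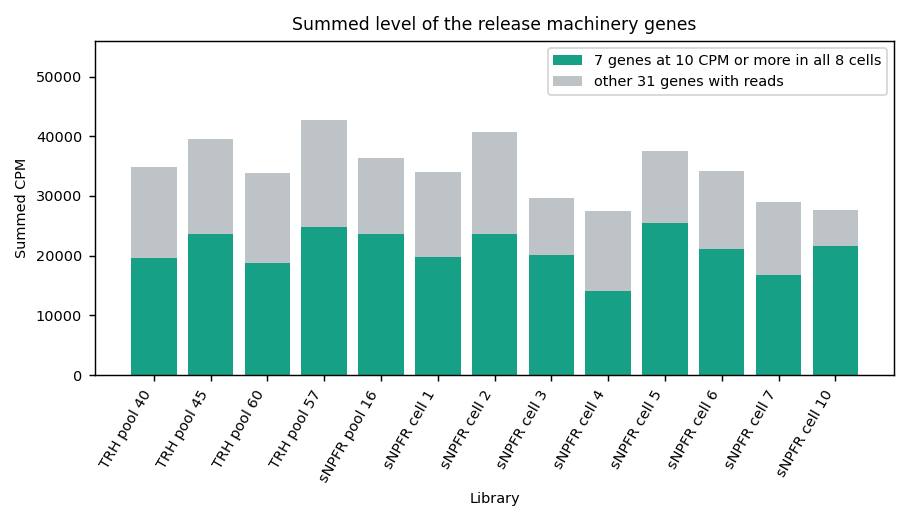
Stacked bars give the summed CPM of the 7 genes present in all 8 cells and of the other 31 genes with reads, in each library. Totals lie between 27566 CPM in cell 4 and 42790.2 CPM in TRH pool 57, and the upper part of the bar is smallest in cell 10.

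The comparison of drivers asked which parts of the machinery differ between TRH-Gal4 and sNPFR-Gal4 neurons. The labels name no animals, so single cells were not taken as replicates. The comparison set the 4 TRH pools against 2 units of sNPFR neurons, of which 1 was the pool and 1 the 8 cells added together. In it 2 of the 38 genes passed (5.26%), comt and unc-13, both lower in the TRH pools, against 13.6% of all 7426 tested genes in either direction. By direction, 0 of 38 were higher in the TRH pools, where 10.6% of all tested genes were, and 2 of 38 were lower there, where 3.03% were. With an unadjusted p under 0.05 there were 7 of 38, against 33.3% of all tested genes. Of all calls 77.7% were higher in the TRH pools, a share of 67.2% under TMM with singleton pairing, 88.0% under upper quartile scaling and 87.9% with library totals only. DESeq2 called 4 of the 38 genes higher in the TRH pools and 1 lower, and limma-voom 3 and 1. The median log2 fold change, TRH pools minus sNPFR units, was -0.10 over the 38 genes and 0.67 over all tested genes. Over the 38 genes it was -0.41 with singleton pairing, 0.42 with upper quartile scaling and 0.44 with library totals only. Its sign thus depended on the scaling. Over all tested genes it was 0.41, 1.20 and 1.28 in these settings. Fold changes carry the TMM scaling of the fit, while CPM values do not. The factors were 1.05 to 1.20 for the TRH pools, 0.918 for the sNPFR pool and 0.679 for the cell sum. A fold change can therefore differ in size or sign from the CPM beside it. With library totals only it was 0.16 for nSyb, 0.19 for alphaSnap and -0.62 for unc-13. The calls of comt and unc-13 were both lost without TRH pool 45, 60 or 57. A shift in the number of cells of a type and in RNA per cell cannot be told apart in pools.

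**Figure D4:**
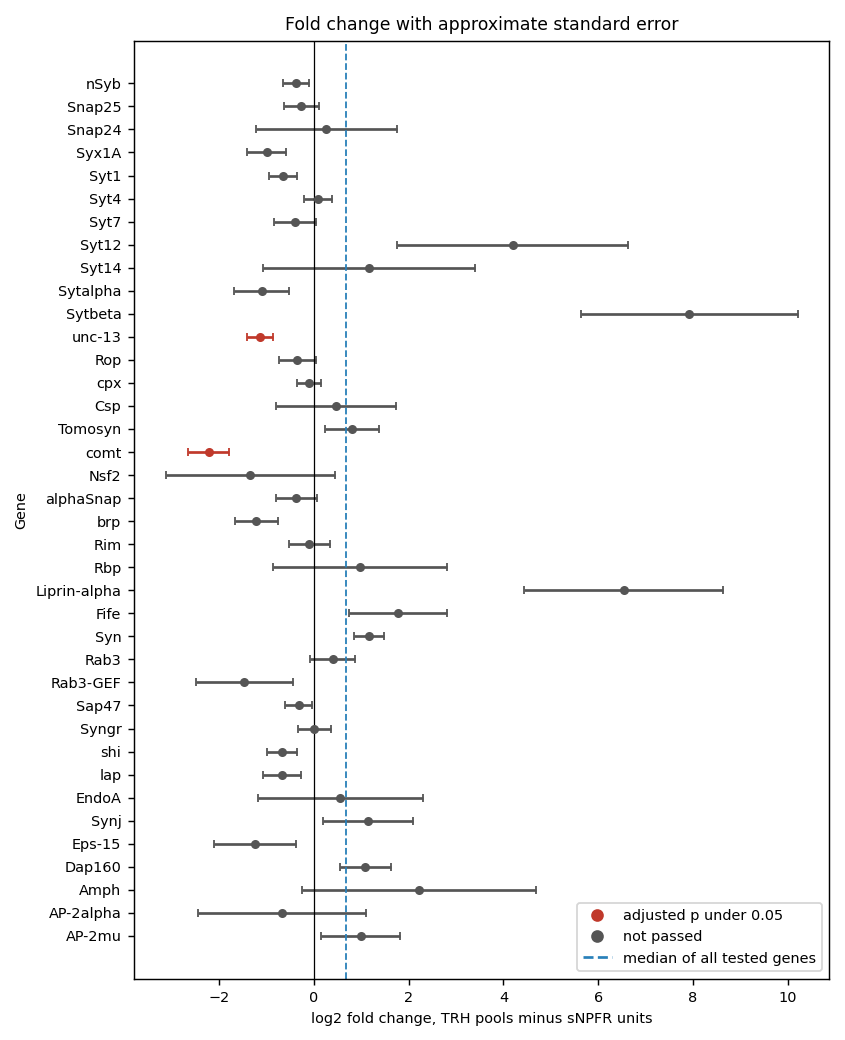
Points give the log2 fold change, TRH pools minus sNPFR units, of the 38 genes with an approximate standard error from edgeR's test, red where the adjusted p was under 0.05. Only comt and unc-13 are red, both left of 0, and the dashed line marks the median of all tested genes at 0.67.

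comt, which encodes the ATPase NSF1 that takes spent SNARE complexes apart (FBgn0000346, chromosome X, 13259021 to 13262488, plus strand, BDGP6), showed the clearer difference. It stood at 274, 288, 404 and 639.6 CPM across the TRH pools, against 1512 CPM in the sNPFR pool and 0, 594 and 3558 CPM over the cells. All TRH pools lay below the sNPFR pool and below the cell sum of 1163 CPM (1458 CPM without cell 7), although cells 1, 4 and 6 lay below every TRH pool, with 0 reads in cells 4 and 6. The log2 fold change was -2.22 ± 0.43 (adjusted p = 0.0235, edgeR). The call held in 19 of 23 alternative settings, and with the cells weighted equally the adjusted p was 0.0553. Nsf2, the second NSF gene of the fly, had 76.0, 47.6, 74.3 and 24.0 CPM across the TRH pools and 226 CPM in the sNPFR pool, and reached at most 0.625 CPM in a cell. It did not pass (adjusted p = 0.64), its log2 fold change being -1.35 ± 1.78, but 8.09 (adjusted p = 0.0134, edgeR) when the summed cells were the only sNPFR unit and -2.37 (adjusted p = 0.0275) when the pool was, calls in opposite directions. Per kb of exon, Nsf2 made up 12.3% ± 6.79 (SD, n = 4) of the Nsf2 and comt pair in the TRH pools, 11.6% in the sNPFR pool and 0.00818% in the summed cells. alphaSnap, the adaptor that brings NSF to the complex, stood at 480.0, 479, 394 and 562 CPM across the TRH pools, against 334 CPM in the sNPFR pool and 1.46, 506 and 1899 CPM over the cells (log2 fold change -0.37 ± 0.43, adjusted p = 0.582). The TRH range held the cell sum and lay above the sNPFR pool. alphaSnap was present in 7 of 8 cells, and comt and alphaSnap together in 5. An antisense RNA gene, asRNA:CR43875, covers 15.0% of the exon bases of alphaSnap.

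unc-13, the factor that opens syntaxin and primes vesicles (FBgn0025726, chromosome 4, 867824 to 912331, minus strand), had 1826, 1548, 1389 and 1062 CPM across the TRH pools, against 2334 CPM in the sNPFR pool and 674, 1889.5 and 3963 CPM over the cells. The TRH pools lay below both sNPFR units, of which the cell sum was 2133 CPM, while cells 2, 4, 6 and 10 lay within or below the TRH range. The log2 fold change was -1.14 ± 0.27 (adjusted p = 0.0363, edgeR). It was past the threshold in 13 of 23 alternative settings, not in DESeq2 (adjusted p = 0.0876), limma-voom (0.327), upper quartile scaling (0.161) or library totals only (0.162), and not with no filter on low counts (0.0515), cells weighted equally (0.102) or the sNPFR pool alone (0.0759). Genes annotated on the opposite strand share exon stretches with unc-13, the largest being asRNA:CR43425 over 15.6% of its exon bases. The library kits do not mark strand, so reads in those stretches cannot be assigned by strand. The other regulators of SNARE pairing did not pass. cpx, the complexin that clamps and speeds fusion, was the most abundant of the 38 genes by CPM in all 5 pools but in 3 of the 8 cells only, at 6223, 7622, 4995 and 7325 CPM across the TRH pools, against 5642 CPM in the sNPFR pool and 809, 4736 and 9033 CPM over the cells. The TRH range held the sNPFR pool, and 5 of the cells lay below it, cell 4 the lowest. The log2 fold change was -0.10 ± 0.25 (adjusted p = 0.825), and its sign was the other way in 6 of 23 alternative settings. Rop, the Munc18 protein that binds syntaxin, stood at 678 ± 167 CPM (SD, n = 4) across the TRH pools and 816 CPM in the sNPFR pool, and was present in 4 cells. Syx1A was present in all 8 cells, so 4 cells held Syx1A without Rop at 10 CPM. Tomosyn, an inhibitor of SNARE pairing, had 855 ± 102 CPM across the TRH pools and 641 CPM in the sNPFR pool, and was present in 3 cells. Csp, the vesicle chaperone that protects SNAP-25, stood at 370.5 ± 105 CPM (SD, n = 4) across the TRH pools and 439 CPM in the sNPFR pool, yet only cell 5, at 62.2 CPM, reached 10 CPM.

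The fusion SNAREs themselves gave no call. nSyb, neuronal synaptobrevin (FBgn0013342, chromosome 3L, 1630348 to 1637752, minus strand), had 2601, 2939, 2679 and 3572 CPM across the TRH pools, against 2548 CPM in the sNPFR pool and 1304, 2873 and 5996 CPM over the cells (log2 fold change -0.37 ± 0.27, adjusted p = 0.379, edgeR). Of the 38 genes it varied least over the cells among those at 10 CPM or more in every cell, with an SD of 0.68 on the log2(CPM + 1) scale. Its level in the sNPFR pool lay just under the TRH pools, and the cells lay on both sides of them, 3 above and 3 below. Syx1A, syntaxin 1, stood at 703, 785, 916 and 873 CPM across the TRH pools, against 747 CPM in the sNPFR pool and 114, 962 and 1801 CPM over the cells (log2 fold change -1.0 ± 0.41, adjusted p = 0.142). The sNPFR pool lay within the TRH range, as did cell 6, while cells 1, 5, 7 and 10 lay above it and cells 2, 3 and 4 below. On the same strand eIF4EHP shares 10.7% of its exon bases. Snap25 (chromosome 3L, 24074180 to 24299205, plus strand) had 768, 1285, 1024 and 1420.1 CPM across the TRH pools, against 1293 CPM in the sNPFR pool and 0, 489.7 and 2483 CPM over the cells (log2 fold change -0.26 ± 0.38, adjusted p = 0.666). The TRH range held the sNPFR pool, and of the cells only 2 and 5 lay above it. Snap25 had 0 reads in cell 4, and nSyb, Snap25 and Syx1A were all present in the other 7 cells. Cell 4 held no Snap24 read either. Snap24, a close relative of Snap25 found in many tissues, stood at 131, 64.9, 155 and 76.4 CPM across the TRH pools and 142 CPM in the sNPFR pool, and only cell 1, at 10.5 CPM, reached 10 CPM. Per kb of exon its share of the Snap24 and Snap25 pair was 17.4%, 5.88%, 15.8% and 6.24% in the TRH pools, 12.0% in the sNPFR pool and 0% to 1.35% in the 7 cells with reads of the pair. Syb, the synaptobrevin of other membranes, made up 6.78%, 1.0%, 5.92% and 0.741% of the Syb and nSyb pair in the TRH pools, 0.00691% in the sNPFR pool and 0% in every cell. In the TRH pools the Syb and Snap24 shares were both higher in pools 40 and 60 than in pools 45 and 57. No test of these shares was made, as 4 against 2 units is too few for an exact permutation test to pass 0.05.

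Among the synaptotagmins 1 gene was present in every cell and 6 were present in some. Syt1, the calcium sensor of fast release (FBgn0004242, chromosome 2L, 2772327 to 2799979, minus strand), had 2414, 2735, 2298 and 2482 CPM across the TRH pools, against 2267 CPM in the sNPFR pool and 999.8, 2789.6 and 4745 CPM over the cells (log2 fold change -0.65 ± 0.29, adjusted p = 0.166, edgeR). Its coefficient of variation over the TRH pools was 7.45%. Its level in the sNPFR pool lay just under the TRH pools, cells 2, 5, 7 and 10 above them and cells 1, 4 and 6 below. Syt4, a postsynaptic and dense-core vesicle form, stood at 1454, 1072, 1047 and 904 CPM across the TRH pools and 969.8 CPM in the sNPFR pool, and was present in 4 cells, with 0 reads in cells 3, 4 and 6. Syt7, a high-affinity calcium sensor, had 406, 449, 644 and 579.8 CPM across the TRH pools and 349 CPM in the sNPFR pool and was present in 5 cells. Sytalpha stood at 149, 397, 150.0 and 245 CPM across the TRH pools and 435 CPM in the sNPFR pool, and was present in cells 5, 6 and 7, all of them above the TRH range and all of which also held Syt7. Its range over the TRH pools was wide, with pool 45 the highest. Per kb of exon, the TRH mean of Syt4 was close to that of Syt1, at 361 ± 75.7 against 345 ± 25.7 CPM per kb (SD, n = 4). Syt4 was the higher in pools 40 and 60, and Syt1 in pools 45 and 57. The exons of Syt1 cover 7190 bases, against 5872 in its longest transcript, while Syt4 has 3103 in both. The comparison therefore depends on the length used.

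The other 3 synaptotagmins had 0 reads in the sNPFR pool. They passed the filter on low counts only with the reads of the TRH pools. Nothing is therefore read from the TRH pools lying above both sNPFR units, or from the alternatives in which they passed. Sytbeta (FBgn0261090, chromosome 3L, 15014695 to 15064977, minus strand) had 599.6, 406, 489.6 and 506 CPM across the TRH pools, had 0 reads in the sNPFR pool, and had reads in cell 6 alone, at 40.5 CPM. All TRH pools lay above both sNPFR units, and the gene did not pass (log2 fold change 7.92 ± 2.29, adjusted p = 0.0648, edgeR). It passed in 7 of 23 alternatives, with adjusted p-values from 1.98e-06 to 0.136 over the 23. These were DESeq2, limma-voom, library totals only, no filter on low counts, each sNPFR unit alone, and the fit without cell 6, which held its only sNPFR reads. Syt12 had 228, 62.9, 169.9 and 68.6 CPM across the TRH pools and 0 reads in the sNPFR pool, and was present in cell 2 alone, at 139.8 CPM (adjusted p = 0.257). Syt14 had 106, 59.0, 121 and 74.3 CPM across the TRH pools and 0 reads in the sNPFR pool, and was present in cell 6 alone, at 787 CPM, above every TRH pool (adjusted p = 0.758). Suv3 on the opposite strand shares 24.4% of the exon bases of Syt14, so its reads are uncertain. The number of synaptotagmins present was 7 in each TRH pool, 4 in the sNPFR pool, and 2, 4, 1, 1, 4, 5, 4 and 2 in cells 1 to 7 and 10. Cells 3 and 4 held Syt1 as their only synaptotagmin with reads.

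**Figure D5:**
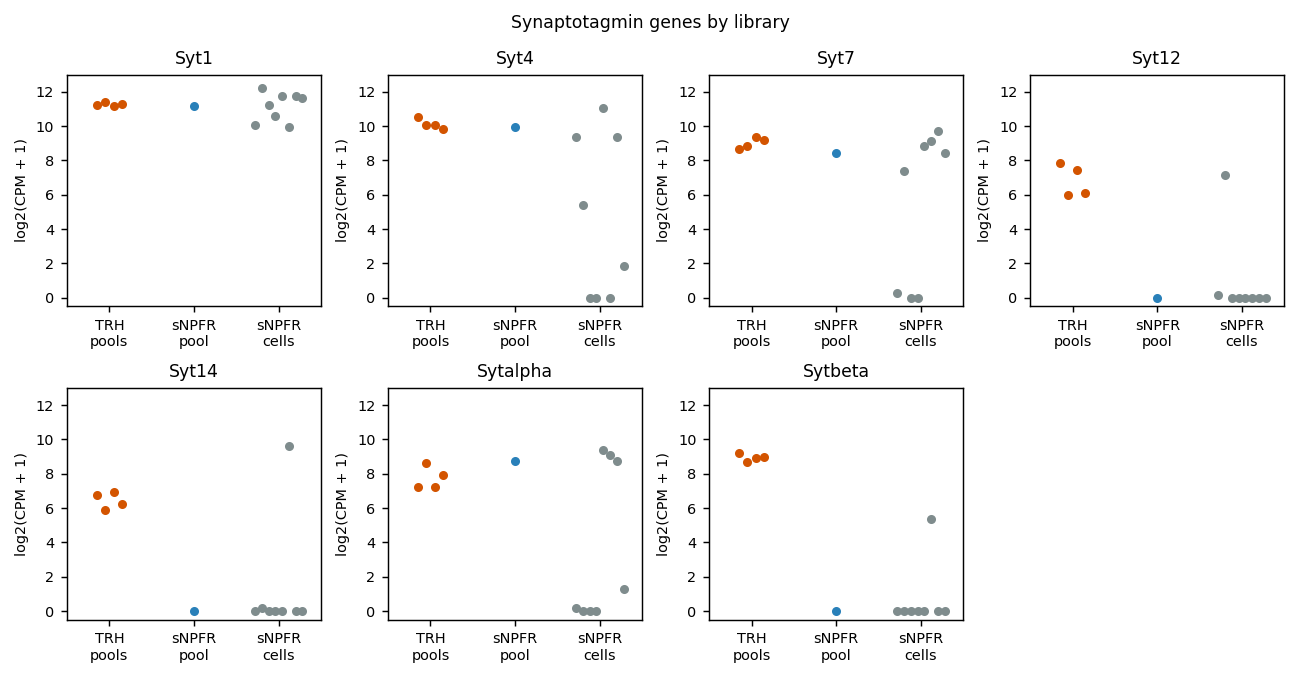
Panels give the level, log2(CPM + 1), of each synaptotagmin gene in the 4 TRH pools, the sNPFR pool and the 8 single sNPFR cells, 1 point per library. Syt1 stays high in all 13 libraries, Syt4, Syt7 and Sytalpha split the cells into high and near 0, and Syt12, Syt14 and Sytbeta are high in the TRH pools and in 1 cell at most.

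Active zone scaffold genes gave no call, and they split into a part found in nearly all cells and a part found in few. brp, the Bruchpilot scaffold of the T-bar, stood at 839, 787, 634 and 853 CPM across the TRH pools, against 727 CPM in the sNPFR pool and 4.84, 1385 and 10718 CPM over the cells (log2 fold change -1.21 ± 0.45, adjusted p = 0.12, edgeR). The sNPFR pool lay within the TRH range, and all cells but cell 10 lay above it, cell 4 the highest. Rim, which ties vesicles and calcium channels to the scaffold, had 1163, 982, 671 and 840.0 CPM across the TRH pools, against 478 CPM in the sNPFR pool and 4.74, 1203 and 2123 CPM over the cells (adjusted p = 0.9). The sNPFR pool was under every TRH pool, with cells on both sides of them. brp and Rim were present in the same 7 cells, and cell 10 held both under 5 CPM, at 4.84 CPM and 4.74 CPM. Rbp, the RIM-binding protein (FBgn0262483, chromosome 3R, 15374635 to 15402543, plus strand), stood at 522, 531, 487 and 516 CPM across the TRH pools, the narrowest spread of the 38 genes with a coefficient of variation of 3.74%. It was at 0.143 CPM in the sNPFR pool and yet present in 6 of the 8 cells, at 0.156, 344 and 1401 CPM (log2 fold change 0.97 ± 1.83, adjusted p = 0.754). Fife, a RIM-like scaffold protein, had 1022, 856, 994 and 691 CPM across the TRH pools and 402 CPM in the sNPFR pool, and was present in cells 1 and 6 (adjusted p = 0.257). Liprin-alpha, an organiser of active zone assembly (FBgn0046704, chromosome 2L, 6723903 to 6732766, plus strand), stood at 77.7, 129.8, 58.3 and 110.5 CPM across the TRH pools and 1.66 CPM in the sNPFR pool. Its only reads in the cells were in cell 2, at 0.256 CPM. It passed the filter on low counts only with the reads of the TRH pools. Nothing is therefore read from its lack of overlap or from the alternatives in which it passed. All TRH pools lay above both sNPFR units, and it did not pass (log2 fold change 6.54 ± 2.10, adjusted p = 0.0891), while it passed in 4 of 23 alternatives, DESeq2, limma-voom and each sNPFR unit alone. For 12 of the 38 genes the TRH pools lay above both units (27.3% of all tested genes) and for 2 below both (8.11%), so 14 in all showed no overlap (35.5%). The 14 were 36.8% of the 38, near the share of all tested genes. The 12 include Syt12, Syt14, Sytbeta and Liprin-alpha, which passed the filter on low counts only with the TRH pools. Nothing is therefore read from these counts.

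Vesicle-associated genes did not pass either. Sap47, a synapse-associated protein whose fly mutants have altered short-term plasticity, had 3311, 4417, 3587 and 4986 CPM across the TRH pools, against 4956 CPM in the sNPFR pool and 1080.3, 2707 and 7429.6 CPM over the cells (adjusted p = 0.476, edgeR). Its level in the sNPFR pool lay within the TRH range, cells 3 and 4 above it and the other 6 cells below. Syn, synapsin, which tethers the reserve vesicles, stood at 1013, 790.2, 871 and 1016 CPM across the TRH pools, against 349 CPM in the sNPFR pool and 0, 164 and 1123 CPM over the cells. All TRH pools lay above both units, of which the cell sum was 241 CPM (log2 fold change 1.16 ± 0.32, adjusted p = 0.0584). Syn passed, higher in the TRH pools, in 6 of 23 alternatives, with adjusted p-values from 1.95e-05 in DESeq2 to 0.133 with singleton pairing in the TMM scaling. Rab3, the vesicle GTPase, had 822, 693, 654 and 1585 CPM across the TRH pools, against 547 CPM in the sNPFR pool and 1.51, 335 and 832 CPM over the cells (adjusted p = 0.599). All TRH pools lay above the sNPFR pool and the cell sum, with pool 57 the highest. Rab3-GEF, its exchange factor, stood at 309, 163, 393 and 292 CPM across the TRH pools, against 41.0 CPM in the sNPFR pool and 0, 618 and 2776 CPM over the cells. The pool lay below all TRH pools and the cell sum of 924 CPM above them, so the log2 fold change was -1.47 ± 1.02 (adjusted p = 0.346, edgeR) but 2.49 (adjusted p = 0.0184) with the pool as the only sNPFR unit and -2.53 (adjusted p = 0.0074) with the summed cells as the only one. Rab3 and Rab3-GEF were each present in 6 cells, and in 4 cells together. Syngr, synaptogyrin of the vesicle membrane, had 935, 1371, 1064 and 1165 CPM across the TRH pools and 734 CPM in the sNPFR pool, and was present in 5 cells with 0 reads in cells 1 and 3 (adjusted p = 0.988).

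Of the vesicle recycling genes shi alone was present in all 8 cells. shi, dynamin, which pinches vesicles from the membrane, stood at 2528, 3599, 2891 and 4493 CPM across the TRH pools, against 5206 CPM in the sNPFR pool and 1197, 3204 and 6292 CPM over the cells (log2 fold change -0.68 ± 0.32, adjusted p = 0.181, edgeR). The sNPFR pool lay above the TRH pools, and the cell sum lay among them. lap, the AP180 clathrin assembly protein, had 458, 411, 476 and 506 CPM across the TRH pools and 824 CPM in the sNPFR pool, and was present in 4 cells. EndoA, endophilin A (FBgn0038659, chromosome 3R, 18906609 to 18910755, plus strand), stood at 460.4, 836, 772 and 800.1 CPM across the TRH pools, with 0.481 CPM in the sNPFR pool and 0, 581 and 1629 CPM over the cells. The sNPFR pool was far under every TRH pool, and the cell sum was among them. EndoA was present in 5 cells, in which the lowest value, in cell 5, was 559 CPM. Its partner Synj, synaptojanin, which strips the coat by dephosphorylating lipids, had 117, 164, 106 and 260.5 CPM across the TRH pools and 18.8 CPM in the sNPFR pool, and was present in cells 2 and 7. EndoA was present in both of those cells. None of these 4 genes passed.

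The clathrin adaptor AP-2 takes in vesicle membrane at sites of recycling. AP-2alpha, a large subunit of the adaptor (FBgn0264855, chromosome 2L, 408030 to 414777, minus strand), stood at 297, 451, 387 and 557 CPM across the TRH pools, against 0.285 CPM in the sNPFR pool and 0, 29.5 and 1298 CPM over the cells. It was present in cells 1, 5, 6 and 7. AP-2mu, the cargo-binding subunit, had 78.2, 433, 279.8 and 453 CPM across the TRH pools and 168 CPM in the sNPFR pool, and was present in cell 2 alone, at 1154 CPM. These were different cells, which with AP-2mu present in 1 cell only shows little about the pair. AP-2sigma, the small subunit, from the lists of other genes, was present in cells 1, 2 and 5, with AP-2alpha in cells 1 and 5 and with AP-2mu in cell 2. The log2 fold change of AP-2alpha was -0.68 ± 1.76 (adjusted p = 0.826, edgeR) but 10.21 (adjusted p = 0.000935) with the pool as the only sNPFR unit and -1.79 (adjusted p = 0.0245) with the summed cells as the only one, calls in opposite directions. Eps-15 and Dap160 encode endocytic scaffold proteins that bind each other. Eps-15 stood at 274 ± 111 CPM (SD, n = 4) across the TRH pools and 979 CPM in the sNPFR pool, and Dap160 had 447 ± 80.7 CPM in TRH pools (SD, n = 4) against 248 CPM in the sNPFR pool. They were present in 3 and 5 cells, and together in cells 4 and 5. Amph, amphiphysin, which in the fly is known for membrane shaping in muscle and elsewhere, had 11.1, 123, 81.5 and 56.7 CPM across the TRH pools and 0 reads in the sNPFR pool, and was present in cells 1 and 2. stnA and stnB, the stoned genes (chromosome X, 22980722 to 23004648, minus strand), are made from 1 transcript and share 100% of their 8332 exon bases in the annotation. How counting treated reads that fall on both is not given in the sources used here, so no level is read from their 0 counts.

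The sNPFR pool and the single cells of the same driver differed for several genes. Of 7 release machinery genes under 1 CPM in that pool, 3 (Rbp, EndoA and AP-2alpha) were present in 4 or more cells, where 1.75% of the 4338 tested genes under 1 CPM there were. That share is not matched for level in the TRH pools, where the means of the 3 genes were 514, 717 and 423 CPM. All tested genes at 500 to 1000 CPM in the TRH pools were present in a median of 6 cells. Those at 100 to 500 CPM were present in a median of 3. In the other direction, of 28 at 100 CPM or more in the pool, 4 (Snap24, Csp, Nsf2 and AP-2mu) were present in at most 1 cell, against 31.1% of the 1946 tested genes at that level.

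The TRH pools lay close together for most of these genes. The median coefficient of variation over the 4 pools was 23.5% for the 38 genes, from 3.74% for Rbp to 68.8% for Amph, and 58.9% for all tested genes. In 25 of the 38 genes (65.8%) the highest pool was less than 2 times the lowest, against 21.9% of all tested genes. Median SDs of log2(CPM + 1) were 0.34 over the TRH pools and 3.47 over the cells for the 38 genes, and 0.86 over the TRH pools and 2.07 over the cells for all tested genes, of which 43.5% were in no cell. The level of a gene bears on both measures, and the 38 genes were not compared with genes of matched level. Among those present in all cells the SD over cells ran from 0.68 for nSyb to 1.33 for Syx1A. Variable genes ranged from 1.22 for Snap24, which was low in all cells, to 4.94 for EndoA.

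Set per kb of exon, so that genes of different length can be ranked, the highest levels in the TRH pools were those of nSyb, at 724 ± 108 CPM per kb (SD, n = 4), Sap47 at 637 ± 120.0, cpx at 573 ± 105, shi at 564 ± 145 and Snap25 at 493 ± 127. Neighbours in that order lay within each other's spread. In the sNPFR pool the same 5 genes led, in the order shi (869), Sap47 (774), nSyb (626), Snap25 (566) and cpx (494 CPM per kb). In the mean of the cells nSyb (759.8), shi (567), Sap47 (539) and cpx (401) led. Active zone scaffold genes were lower on this scale. In the TRH pools brp was at 58.2 ± 7.51, Rim at 64.1 ± 14.7 and Rbp at 56.4 ± 2.11 CPM per kb. Fife was at 92.0 ± 15.6, Liprin-alpha at 15.2 ± 5.17 and the priming factor unc-13 at 64.4 ± 14.1. The length used is the union of exons, for unc-13 22598 bases against 12914 in its longest transcript. No ranking by longest transcript is given.

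Other genes of the same pathways, 72 in 3 lists set by role, gave 10 calls among 69 tested (13.6% of all tested genes), 7 higher (10.6%) and 3 lower in the TRH pools (3.03%), counts near those shares of the whole table. Of 21 tested SNARE and fusion genes of other membranes, 4 were higher in the TRH pools and 17 did not pass. These 4, Syx8, Vamp7, Vti1a and Snap29, had at most 1 sNPFR read each and so passed the filter on low counts only through the TRH pools, so nothing is read from their count. Syx8, a late endosomal syntaxin, had 65.6, 69.6, 47.6 and 50.9 CPM across the TRH pools and no reads in either sNPFR unit (adjusted p = 0.0215, edgeR). Vamp7, of lysosomal fusion, had 84.0, 76.0, 33.6 and 114 CPM across the TRH pools, and 1 read of it was found, in the summed cells (adjusted p = 0.0215). Vti1a, of endosomal fusion, had 29.1, 32.9, 19.2 and 28.6 CPM there and, like Syx8, no sNPFR read (adjusted p = 0.0241). Of 25 other active zone and release regulators, 3 were higher and 2 lower in the TRH pools, and 20 did not pass. Among the 3, wnd and bif had at most 8 reads per sNPFR unit. Like the 4 above, they passed the filter on low counts only through the TRH pools, so nothing is read from the count of 3. Of the 7 genes higher in the TRH pools over the 3 lists, only Srpk79D had more than 8 reads in a sNPFR unit. RhoGAP100F, the fly syd-1 gene of active zone assembly, was lower, at 253, 239, 227 and 269 CPM across the TRH pools against 654 CPM in the sNPFR pool and 473 CPM for the cell sum, which without cell 7 was 863 CPM (log2 fold change -1.68 ± 0.35, adjusted p = 0.0272). wnd, a kinase that acts in axon injury signalling, had 9.97, 59.4, 28.5 and 34.0 CPM across the TRH pools, against 1 read for the sNPFR pool and 4 for the cells (adjusted p = 0.0314). Srpk79D, a kinase known for keeping Bruchpilot from clumping in axons, had 115, 107, 225 and 79.5 CPM across the TRH pools, against 4.78 CPM in the sNPFR pool and 2.79 CPM for the cell sum (log2 fold change 4.63 ± 1.07, adjusted p = 0.0344). Of 23 other recycling genes 1 passed, Hsc70-4, the clathrin uncoating ATPase, lower in the TRH pools at 2704, 2787, 3462 and 2634 CPM against 4288 CPM in the sNPFR pool and 3161 CPM for the cell sum (log2 fold change -0.86 ± 0.20, adjusted p = 0.0338). The cell sum lay within the TRH range, and without cell 7 it was 2261 CPM, below every TRH pool. Under upper quartile scaling and with library totals only, 0 of the 72 genes passed as lower in the TRH pools. In the 8 cells Nrx-1, unc-104 and Hsc70-4 were the only 3 of the 72 genes present throughout. None of the 10 calls was made without TRH pool 45, 60 or 57, where 16 to 39 genes of the whole table passed.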

How the data were processed

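The submitters' processing notes name the tools STAR and edgeR and the BDGP6 build, with no versions. The authors' deposited table gives counts as whole reads for each of 17737 genes. How reads were counted, on which annotation and with which strand setting is not given in the sources used here. A second deposited table, of normalized values, was not used. The count table has 1 column of sample values that matches no sample label, which was not used. Per the labels' protocols, a pool held 15 to 60 cells, SMART-Seq v4 made the cDNA and Nextera XT the libraries. These kits do not mark strand. There are no molecular identifiers, so PCR copies count as reads. The number of RNA molecules behind a count is not known, and intervals for counting error are not given.

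Members and lists were chosen with earlier results of these data known. The test was edgeR 4.0.16 (R 4.3.3), by quasi-likelihood with TMM scaling and filterByExpr, with Benjamini-Hochberg adjustment over 7426 genes at a threshold of 0.05 and 4 residual degrees of freedom. Behind a log2 fold change, ± gives its size over the square root of F, an approximate standard error. P-values measure the spread between these samples, which may be technical. On simulated counts for 7426 genes with 200 changed, the test called 45 of 90 tested genes changed 64-fold and 3 of 96 changed 8-fold, with 3 unchanged genes called and 0 wrong signs. A gene that missed the threshold may therefore still differ. The changed genes were drawn from all tested genes, so these rates need not hold for the release genes. Among those, comt and unc-13 were called at log2 fold changes of -2.22 and -1.14, which is under 8-fold. Named were all 40 genes, up to 3 genes per other list with the smallest p among those past the threshold, Syb, elav and 4 glia markers; other names were chosen after their values were seen. Positions and exon lengths (union of exons) are from Ensembl release 115. Alternatives were DESeq2 1.42.0, limma-voom (limma 3.58.1), other scalings, other filters, each sNPFR unit by itself, equal weighting of cells, and the removal of single TRH pools or cells. A fit without cells 3, 4 and 10 was added after seeing the data. Python 3.11.15, numpy 2.4.6, pandas 2.3.3 and matplotlib 3.10.9 were used for summaries and figures.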

Additional observations from a re-analysis of the deposited data

Results flagged for a closer look

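Among 76 sets of values, 1 per gene and group of libraries, 13 held a library that stood apart from the rest on the log2(CPM + 1) scale. The rule flags about 1 in 20 sets of normally distributed values. Many values in the cells were 0, and a gene with reads in 1 cell only is flagged whatever their number. The count of 13 is therefore not read against that rate. Of the flagged sets 1 concerned the TRH pools: EndoA was low in pool 40, at 460.4 CPM, against 772 to 836 CPM in the others. The other 12 were in single cells. High in 1 cell and at most 5.03 CPM in the other 7 were Syt14 in cell 6 (787 CPM), Sytbeta in cell 6 (40.5 CPM), AP-2mu in cell 2 (1154 CPM), Syt12 in cell 2 (139.8 CPM), Csp in cell 5 (62.2 CPM) and Snap24 in cell 1 (10.5 CPM). Nsf2 in cell 10 (0.625 CPM) and Liprin-alpha in cell 2 (0.256 CPM) held the only or nearly the only reads, at levels under the 10 CPM used for presence. Low in 1 cell were brp and Rim in cell 10 (4.84 and 4.74 CPM, against at least 939.8 and 334.5 CPM in the other cells). Cell 4 was low for Snap25 (0 CPM) and for cpx (809 CPM), against at least 186 and 3145 CPM in the other cells.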

How the results depend on the processing

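Calls among the 38 release genes, given as higher and lower in the TRH pools, were 0 and 2 as reported. They were 4 and 1 with DESeq2, 3 and 1 with limma-voom, 0 and 4 with singleton pairing in TMM, 1 and 1 with upper quartile scaling, and 2 and 1 with library totals only. They were 1 and 1 with no filter, 1 and 2 with a minimum of 1 CPM in 3 units, 10 and 4 against the sNPFR pool alone, 8 and 7 against the summed cells alone, and 1 and 0 with cells weighted equally. With 1 TRH pool or cell left out they ranged from 0 to 2 higher and from 0 to 2 lower, and without TRH pool 45, 60 or 57 both were 0. The other lists, 7 and 3 as reported, gave 13 higher with DESeq2, 23 with the sNPFR pool alone and 17 with the summed cells alone. Lower in the TRH pools there were 8 with singleton pairing, 0 with upper quartile scaling, 0 with library totals only, 1 with no filter, 7 with summed cells alone, 1 with cells weighted equally and 5 without cells 3, 4 and 10. With 1 TRH pool or cell left out these ranged from 0 to 9 higher and 0 to 3 lower. Over the whole table, 77.7% of calls were higher in TRH pools as reported, 67.2% with singleton pairing, 88.0% with upper quartile scaling and 87.9% with library totals. Under these scalings the table's median log2 fold change was 0.67, 0.41, 1.20 and 1.28. That of the 38 genes was -0.10, -0.41, 0.42 and 0.44.

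Nsf2 reversed to 8.09 with summed cells alone, and Rab3-GEF to 2.49 and AP-2alpha to 10.21 with the sNPFR pool alone. Against the other unit alone each passed the other way, Nsf2 at -2.37, Rab3-GEF at -2.53 and AP-2alpha at -1.79. The cause was not tested. The sign of the fold change was the same in all 23 alternatives for 20 of the 38 genes, and 14 passed in none. Genes present in every cell numbered 11 at 1 CPM and 13 without cells 3, 4 and 10, against 7. With 1 cell left out they ranged from 7 to 10, and the median SD over cells from 3.19 to 3.57. With 1 TRH pool left out 38 genes were present in every pool, and the median SD over pools ranged from 0.27 to 0.38. No paired analysis was possible because the groups share no replicate number. At 3 reads, the floor for a count of 0, the level is 0.0535 CPM for the sNPFR pool and 0.887 CPM for cell 4.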
